A study of Homo sapiens with 12 samples.

Results

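Genes whose proteins act on the formation or decay of circular RNA (circRNA) were followed through 12 RNA libraries of AC16 cells and their exosomes. They were 8 named genes, DHX9, ADAR, QKI, ILF2, METTL3, YTHDF2, DDX5 and DDX17, taken by symbol from the 15414 genes listed in cells or exosomes, and all 8 were found. All 8 belonged to the 11940 genes listed in both compartments and passed the filter on low counts in every comparison. Their read counts are given beside the total of back-splice junction reads in each library, the reads that cross the closure of a circle.

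AC16, an established human cell line, descends from ventricular cardiomyocytes fused with fibroblasts. Exosomes are secreted vesicles of endosomal origin. The 4 groups, each of 3 libraries of total RNA, were exosomes labelled Ang, exosomes labelled Con, whole cells labelled Ang and whole cells labelled Con. The labels do not spell out Ang or Con and give no agent, dose or time, and the design text names hypertrophic cardiomyocytes and their exosomal microRNAs as the subject. Exosome RNA was isolated with an exoRNeasy Maxi kit and made into libraries with a SMARTer Stranded Total RNA kit, whereas cell RNA was isolated with a miRNeasy Micro kit and made into libraries with a VAHTS Universal V6 kit. Compartment and kit therefore cannot be told apart in any difference between exosomes and cells. In bulk RNA, fewer vesicles or cells and less RNA in each cannot be told apart either.

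Gene reads per library numbered 535442 to 587783 in Ang exosomes and 717263 to 745311 in Con exosomes, against 9202471 to 10623090 in Ang cells and 9442962 to 11212674 in Con cells. Of 12 cardiomyocyte markers, 3 were listed in exosomes (summed level 25.8 to 67.2 CPM, counts per 1000000) and 8 in cells (105.2 to 126.0 CPM), and TNNC1, MYL7, MYL2 and MYH6, which encode contractile proteins, were not listed in either. All 12 fibroblast markers were listed in both, with summed levels of 8310 to 9647 CPM in exosomes and 8642 to 10430 CPM in cells. Endothelial markers summed to at most 13.9 CPM in exosomes and 20.5 CPM in cells. Of 7 immune markers, CD68 alone was listed in exosomes, at 3.70 to 176.6 CPM in Ang and 15.8 to 88.9 CPM in Con, and 4 were listed in cells, summing to 13.7 to 71.3 CPM in Ang and 17.8 to 20.04 CPM in Con. Of 8 blood and serum markers, the 3 haemoglobin genes listed in exosomes were at 0 in Ang and summed to at most 39.9 CPM in Con, and those listed in cells summed to at most 0.535 CPM. The part of these other cell types in the results was not tested.

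A circRNA arises when the spliceosome joins the end of an exon to the start of the same or an upstream exon, a step that is favoured when the flanking introns are brought together. Inverted Alu repeats in those introns can pair and bring the exon ends close, and proteins such as QKI can do the same by binding both introns. DHX9 unwinds paired Alu repeats and ADAR edits them, and both are known to limit circle formation. Circles lack ends and so resist exonucleases, but those that carry N6-methyladenosine (m6A), written by METTL3, can be cut through the m6A reader YTHDF2.

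Some members are themselves hosts of circles, and the junctions below show what the counted reads cross. They are the 6 circles of member genes whose ends both coincide with exon ends of a GENCODE release 29 transcript, read from those transcripts on GRCh38, with the last 20 bases of the donor exon in lower case and the first 20 bases of the acceptor exon in capitals. The capitals therefore mark the upstream exon that follows the back-splice.

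DDX17 exons 2 to 8: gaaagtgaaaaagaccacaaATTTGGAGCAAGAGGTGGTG
DDX17 exons 2 to 5: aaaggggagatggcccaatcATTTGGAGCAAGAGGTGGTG
METTL3 exons 2 to 3: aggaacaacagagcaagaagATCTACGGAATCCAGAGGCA
DHX9 exons 20 to 25: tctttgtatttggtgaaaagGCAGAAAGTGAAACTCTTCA
QKI exons 2 to 4: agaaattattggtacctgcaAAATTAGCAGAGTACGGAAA
YTHDF2 exon 4: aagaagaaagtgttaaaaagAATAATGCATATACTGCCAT

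The 2 DDX17 circles share their acceptor, the start of exon 2, and differ in the donor exon. Both lie on the minus strand, at chr22:38494630-38501280 for exons 2 to 8 of 13 (927 spliced bases) and at chr22:38498085-38501280 for exons 2 to 5 (451 spliced bases). The METTL3 circle lies at chr14:21503173-21503881 on the minus strand (623 spliced bases). The DHX9 circle lies at chr1:182878021-182883368 on the plus strand (946 spliced bases). The QKI circle, at chr6:163455279-163535125 on the plus strand, spans 3 exons (404 spliced bases), and the YTHDF2 circle, at chr1:28742403-28743986 on the plus strand, is a single exon of 1584 bases. All 6 lie within coding sequence.

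Junction reads were more numerous relative to gene reads in exosome libraries than in cell libraries. Their share of all sequenced reads was not measured. The 3 Ang exosome libraries held 1818, 1871 and 1651 junction reads per 1000000 gene reads and the 3 Con exosome libraries 1648, 1867 and 1624, against 689.7, 757.7 and 728.2 in Ang cells and 717.3, 708.9 and 714.4 in Con cells. Every exosome library was above every cell library. The mean over 6 exosome libraries was 1747 ± 118 (SD), against 719.4 ± 22.7 (SD) over 6 cell libraries, a 2.42-fold difference of geometric means (exact two-sided permutation p = 0.002165, the smallest that 6 against 6 can give).

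Ang and Con libraries overlapped in this total in both compartments. The 3 Ang exosome libraries averaged 1780 ± 115 (SD) and the 3 Con exosome libraries 1713 ± 134 (SD), a log2 difference of 0.06 (exact permutation p = 0.5). The 3 Ang cell libraries averaged 725.2 ± 34.1 (SD) and the 3 Con cell libraries 713.5 ± 4.26 (SD), a log2 difference of 0.02 (exact permutation p = 0.7). The smallest two-sided p open to 3 libraries against 3 is 0.1.

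**Figure D1:**
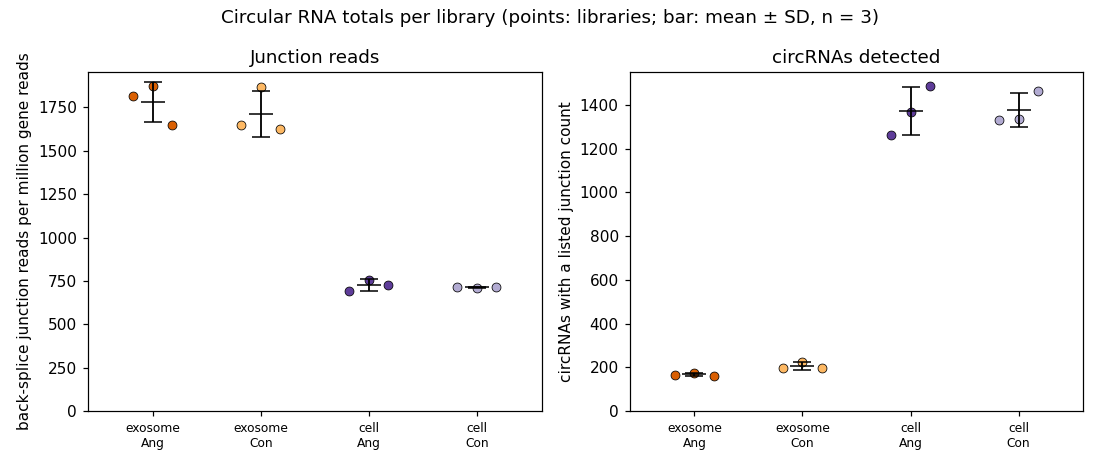
Back-splice junction reads per 1000000 gene reads (left) and the number of circRNAs with a listed junction count (right) in each library, by group, with the mean and SD of 3 libraries. Exosome libraries sit between 1624 and 1871 junction reads per 1000000 gene reads, above the cell libraries at 689.7 to 757.7, while they list 161 to 226 circRNAs against 1264 to 1485 in cells.

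Fewer different circles were counted in the shallower exosome libraries. The 3 Ang exosome libraries listed 165, 176 and 161 circRNAs and the 3 Con exosome libraries 197, 226 and 196, against 1264, 1370 and 1485 in Ang cells and 1332, 1334 and 1465 in Con cells. Nonzero junction counts were all 2 or more, so a circle with 1 read in a library is not seen. The cells' reads were also thinned to the depth of the shallowest exosome library, with counts of 1 set to 0. The log2 difference in junction reads per 1000000 gene reads was then 2.69, against 1.28 at full depth. Exosome counts were left unchanged, while the cell counts, already limited to 2 or more, met the limit again. A larger difference was thus built into the step, and 2.69 is no depth-matched estimate.

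All 8 genes had a lower fitted level in exosomes than in cells, and 6 passed the test: DDX17, DDX5, YTHDF2, DHX9, QKI and ADAR. Across all 11811 genes tested, 19.5% were called lower and 17.6% higher, and 56.0% had a log2 fold below 0. The median log2 fold was -0.63 over the 8 genes and -0.15 over all genes. The 8 genes were chosen with earlier results of these data known, so setting them beside all genes is a description only. Levels are CPM after edgeR's TMM scaling between libraries, so they are relative but not plain shares of gene reads. The junction totals above use unscaled gene reads. Genes were tested with edgeR's quasi-likelihood F test and Benjamini-Hochberg adjustment at 0.05. QKI, DDX5 and DDX17 had every exosome library below every cell library, a pattern shown by 13.1% of all genes in that direction.

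**Figure D2:**
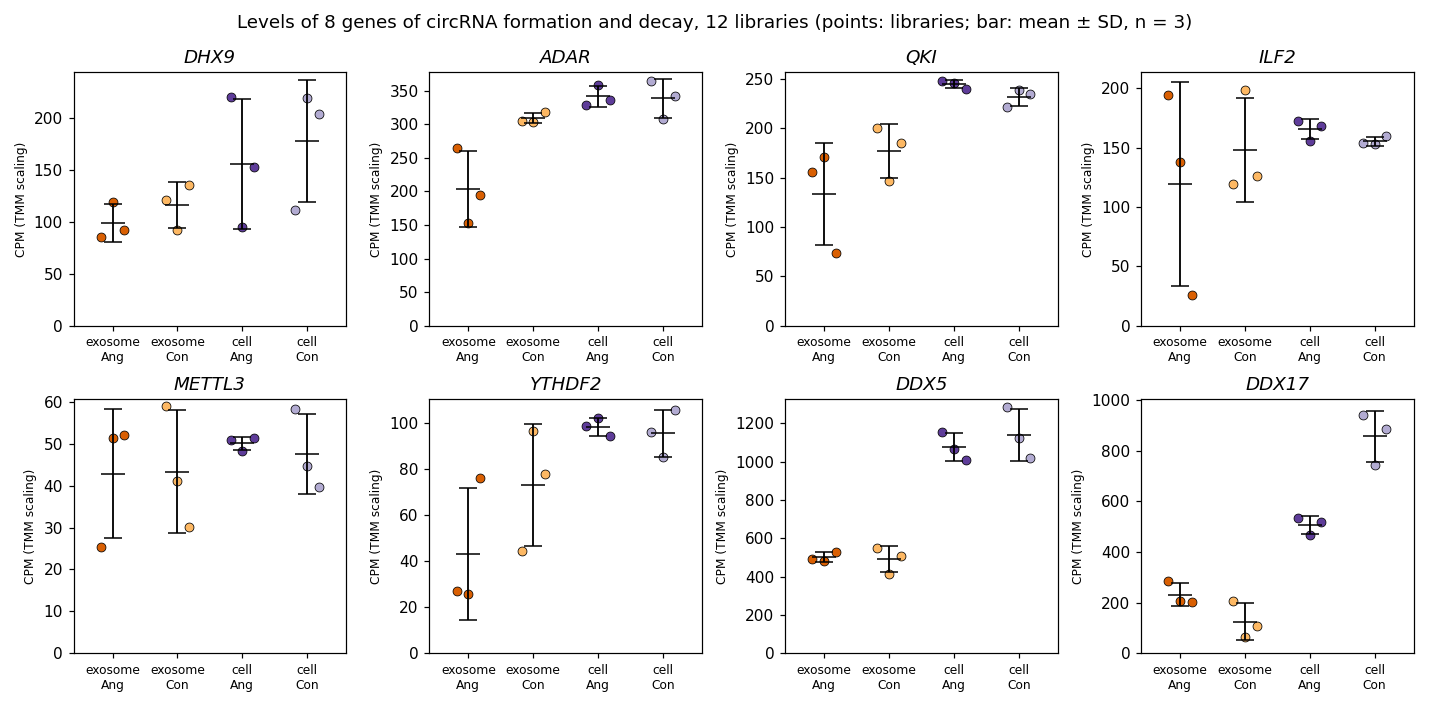
Level of each of the 8 genes in CPM (linear axis from 0) in the 12 libraries, by group, with the mean and SD of 3 libraries. DDX17 is highest in Con cells and lowest in exosomes, DDX5 separates exosomes (415.4 to 546.9 CPM) from cells (1010 to 1284 CPM), and DHX9 varies within each cell group.

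Among the genes that act on circle formation, QKI encodes a STAR-family RNA-binding protein that promotes circularization by binding flanking introns (ENSG00000112531, chr6:163414000-163578596, plus strand). It stood at 155.3, 170.9 and 74.1 CPM in Ang exosomes and 200.0, 146.8 and 184.7 CPM in Con exosomes, against 247.6, 245.8 and 240.2 CPM in Ang cells and 221.8, 239.0 and 234.4 CPM in Con cells. The exosome libraries were all lower than the cell libraries and far more scattered, with the third Ang exosome library lowest. QKI fell in exosomes by 0.63 on the log2 scale (SE 0.18, adjusted p = 0.014). The call held without each of the 12 libraries in turn, with an adjusted p of at most 0.0364.

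DHX9 encodes an RNA and DNA helicase (ENSG00000135829, chr1:182839369-182887751, plus strand). Its level was 85.4, 119.4 and 92.1 CPM in Ang exosomes and 120.9, 92.5 and 135.1 CPM in Con exosomes, against 220.0, 95.2 and 152.4 CPM in Ang cells and 111.0, 219.2 and 203.6 CPM in Con cells. The lowest library of each cell group overlapped the exosomes, and the other 4 cell libraries were above all exosomes. DHX9 fell in exosomes by 0.63 on the log2 scale (SE 0.23, adjusted p = 0.0491), and the call held in 2 of the 12 fits that left out a library, those without the low second Ang or low first Con cell library (adjusted p 0.0223 to 0.152 over the 12 fits). The call was also lost with RLE scaling (adjusted p = 0.0615). Of its transcripts' 50-base stretches, 2.84% also occurred in another gene, nearly all of them in the pseudogene DHX9P1.

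The ratio of the highest to the lowest of the 6 exosome libraries was 1.58 for DHX9, which 87.7% of the 3300 genes with a mean within 2-fold of its own reached. Among the 6 cell libraries the ratio was 2.31, larger than for the other 7 genes, and 11.9% of the 2409 genes of like mean had as large a ratio. Low and high cell libraries occurred in both Ang and Con. The scatter of DHX9 was thus at the low end of like genes in exosomes and at the high end in cells.

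ADAR encodes the adenosine deaminase that converts adenosine to inosine in double-stranded RNA (ENSG00000160710, chr1:154582057-154628013, minus strand). Its level was 264.0, 152.5 and 194.2 CPM in Ang exosomes and 305.1, 303.9 and 318.3 CPM in Con exosomes, against 328.9, 358.8 and 336.4 CPM in Ang cells and 364.7, 307.9 and 342.0 CPM in Con cells. Ang exosomes were the lowest group, while the highest Con exosome library lay within the range of the cells. ADAR fell in exosomes by 0.44 on the log2 scale (SE 0.13, adjusted p = 0.0163), and the adjusted p was 0.0508 without the first Con cell library.

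ILF2 encodes NF45, the partner of the double-stranded RNA-binding protein NF90 (ENSG00000143621, chr1:153661788-153671048, minus strand, with 1.89% of its exon length opposite SNAPIN). It averaged 133.6 ± 62.7 CPM in the 6 exosome libraries and 160.5 ± 8.18 CPM in the 6 cell libraries (SD) and did not pass the test (log2 -0.27, SE 0.32, adjusted p = 0.529). The third Ang exosome library, at 26.0 CPM from 13 reads, was far below the other 5 exosome libraries at 119.4 to 198.2 CPM. The 6 cell libraries spanned only 152.8 to 172.6 CPM.

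DDX5 and DDX17 encode closely related DEAD-box helicases of splicing and transcription, and both had lower levels in exosomes. DDX5 (ENSG00000108654, chr17:64499616-64508199, minus strand, with 6.85% of its exon length opposite CEP95) stood at 493.0, 481.3 and 530.6 CPM in Ang exosomes and 546.9, 415.4 and 509.0 CPM in Con exosomes, against 1153, 1069 and 1010 CPM in Ang cells and 1284, 1122 and 1017 CPM in Con cells. The 2 compartments were far apart and the labels Ang and Con overlapped within each. DDX5 fell in exosomes to 0.447 times its fitted level in cells (log2 -1.16, SE 0.09, adjusted p = 1.19e-06).

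DDX17 (ENSG00000100201, chr22:38483440-38507660, minus strand) had the largest difference of the 8 genes. Its level was 285.3, 207.6 and 202.2 CPM in Ang exosomes and 204.3, 61.7 and 106.6 CPM in Con exosomes, against 535.6, 466.4 and 519.3 CPM in Ang cells and 941.4, 743.2 and 887.0 CPM in Con cells. All exosome libraries were below all cell libraries. DDX17 fell in exosomes to 0.257 times its fitted level in cells (log2 -1.96, SE 0.23, adjusted p = 3.16e-05). None of its 50-base transcript stretches occurred in another gene, DDX5 included, and the calls of both genes held without each of the 12 libraries in turn.

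For the m6A genes, METTL3 encodes the catalytic subunit of the methyltransferase (ENSG00000165819, chr14:21498133-21511375, minus strand, with 6.58% of its exon length opposite TOX4). It averaged 43.1 ± 13.4 CPM in the 6 exosome libraries and 48.9 ± 6.35 CPM in the 6 cell libraries (SD), and the compartments overlapped (log2 -0.18, SE 0.23, adjusted p = 0.566). YTHDF2 encodes a cytoplasmic m6A reader that recruits decay enzymes (ENSG00000198492, chr1:28736621-28769775, plus strand). Its level was 27.2, 25.7 and 76.1 CPM in Ang exosomes and 44.6, 96.9 and 78.1 CPM in Con exosomes, against 98.8, 102.4 and 94.6 CPM in Ang cells and 96.4, 85.3 and 105.7 CPM in Con cells.

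Of the exosome libraries, only the second Con library reached the range of the cells for YTHDF2. The gene fell in exosomes by 0.80 on the log2 scale (SE 0.26, adjusted p = 0.0313), and the call held in 4 of the 12 fits that left out a library (adjusted p 0.00147 to 0.0721). It rests on 14 to 66 exosome reads per library, and 8.72% of its 50-base transcript stretches also occurred in another gene, the pseudogene YTHDF2P1.

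Calls also changed when the cell libraries were thinned in 1 random draw, with 9338 genes tested instead of 11811. With the cells thinned to the shallowest exosome library, DDX5 and DDX17 were the members called, where 16.4% of 9338 genes were called lower. QKI (log2 -0.46, adjusted p = 0.067), ADAR (-0.32, adjusted p = 0.0741), YTHDF2 (-0.73, adjusted p = 0.0564) and DHX9 (-0.56, adjusted p = 0.0924) were below 0 without passing edgeR's test. Leaving out 1 library kept 4 or 5 members called, with QKI, DDX5 and DDX17 among them in all 12 fits.

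The difference between exosomes and cells was also taken within each label. Within Ang, DDX5 (log2 -1.10), DDX17 (-1.13), YTHDF2 (-1.20), QKI (-0.87) and ADAR (-0.75) were called lower in exosomes, where 10.7% of all genes were. The calls of DDX17, QKI and YTHDF2 within Ang held in 8, 9 and 4 of the 12 fits without a library, and without the third Ang exosome library YTHDF2 stood at -1.91. With the cells thinned, ADAR, DDX5 and DDX17 were called within Ang, where 8.34% of genes were called lower. Within Con, DDX17 (-2.79) and DDX5 (-1.22) were, where 9.26% of all genes were. ADAR stood at -0.13 within Con (SE 0.18, adjusted p = 0.648) and QKI at -0.39 (SE 0.25, adjusted p = 0.294), and the test of the difference between the labels gave an adjusted p of 0.564 for ADAR and of 0.792 for QKI.

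**Figure D3:**
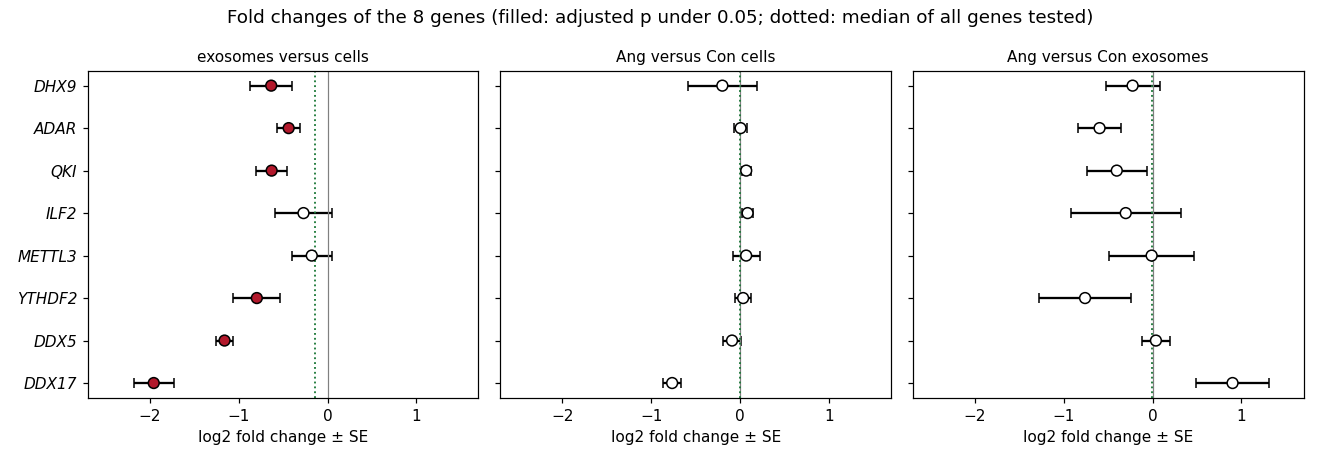
Fitted log2 fold change and its SE, calculated from the F statistic, for the 8 genes. Panels show exosomes against cells, Ang against Con cells and Ang against Con exosomes. Filled points passed an adjusted p of 0.05 and the dotted line is the median of all genes tested; 6 points are filled, all in exosomes against cells, with DDX17 at -1.96 and DDX5 at -1.16 farthest from 0.

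Levels were also divided by exon length, the union of all annotated exons of a gene. That length can exceed the expressed transcript, and the order between genes depends on it. On this scale DDX5 had the most reads per kilobase in both compartments. It stood at 67.1 ± 6.25 CPM per kilobase in the 6 exosome libraries and 150.1 ± 13.9 in the 6 cell libraries (SD). In exosomes the order was then ILF2 (58.6), ADAR (26.5), DHX9 (19.1), DDX17 (17.8), YTHDF2 (15.1), QKI (8.94) and METTL3 (7.32 CPM per kilobase). In cells it was ILF2 (70.4), DDX17 (68.3), ADAR (35.1), DHX9 (29.6), YTHDF2 (25.2), QKI (13.7) and METTL3 (8.29 CPM per kilobase). DDX17 thus had rank 5 in exosomes and rank 3 in cells. Neighbours that differed by less than the larger of their SDs were, in exosomes, DDX5 and ILF2 and every pair of neighbours from DHX9 down to METTL3, and, in cells, ILF2 and DDX17, ADAR and DHX9, and DHX9 and YTHDF2.

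Genes of the wider pathway lists were called in both directions between exosomes and cells. Of all 11811 genes tested, 17.6% rose and 19.5% fell. Of 30 tested genes of circRNA formation, 8 rose and 11 fell in exosomes; without the 6 members on the list, 8 of 24 rose and 6 fell, with a median log2 fold of -0.02. RBM25, a splicing regulator, rose to 1627 ± 230 CPM in exosomes, against 480.7 ± 73.1 CPM in cells (adjusted p = 3.9e-07). TAF15, an RNA-binding protein of the FET family, rose 3.07-fold (adjusted p = 1.89e-05), HNRNPC, an hnRNP protein that binds uridine tracts, 2.05-fold (adjusted p = 0.000364) and SNRNP70, a U1 snRNP protein, 1.51-fold (adjusted p = 0.000594). The spliceosome core proteins PRPF8 (0.494 times the level in cells, adjusted p = 4.32e-06) and SF3B1 (0.474 times, adjusted p = 0.000279) fell.

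Of 11 tested genes on the circRNA export list, 4 rose and 2 fell in exosomes, where 17.6% of all genes rose and 19.5% fell. Their median log2 fold was 0.03. YTHDC1, the nuclear m6A reader, rose 3.09-fold (adjusted p = 0.000576), IGF2BP2 1.40-fold (adjusted p = 0.04), DDX39A, an export helicase, 1.37-fold (adjusted p = 0.0438) and the transport GTPase gene RAN 1.36-fold (adjusted p = 0.00648). The calls of IGF2BP2 and DDX39A were each lost in 7 of the 12 fits that left out a library, and that of DDX39A with the cells thinned (adjusted p = 0.0584). XPOT, the tRNA exporter, fell to 0.601 times its level in cells (adjusted p = 0.00175). IGF2BP1, an m6A reader, averaged 4.61 ± 7.37 CPM in the 6 exosome libraries and 96.3 ± 51.8 CPM in the 6 cell libraries (SD; adjusted p = 0.000196).

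Of 25 tested genes on the circRNA decay list, 3 rose and 8 fell in exosomes, with a median log2 fold of -0.20. The list also holds exonuclease genes, although circles lack ends and resist exonucleases. Without YTHDF2, 3 of 24 rose and 7 fell, where 17.6% of all genes rose and 19.5% fell. The 3 that rose were protein genes of RNase P and MRP: POP7 (3.01-fold, adjusted p = 0.000428), RPP25 (3.41-fold, adjusted p = 0.00389) and RPP38 (2.18-fold, adjusted p = 0.0345), the last of which lost its call in 7 of the 12 fits that left out a library. Those that fell included the exonuclease gene XRN1 (0.461 times the level in cells, adjusted p = 1.81e-05), the stress granule genes G3BP2 (0.341 times, adjusted p = 3.44e-05) and G3BP1 (0.415 times, adjusted p = 0.00121), and AGO2, the slicing Argonaute (0.567 times, adjusted p = 0.000429). All values are from edgeR's fit to the 12 libraries.

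Of 20 m6A writers, erasers and readers, 7 rose and 5 fell in exosomes, against 17.6% and 19.5% of all genes. Without METTL3 and YTHDF2, 7 of 18 rose and 4 fell, with a median log2 fold of 0.06. The writer subunits VIRMA (2.47-fold, adjusted p = 1.65e-05), RBM15 (2.71-fold, adjusted p = 0.00173) and RBM15B (3.21-fold, adjusted p = 0.00192) rose beside YTHDC1. The eraser FTO (0.555 times the level in cells, adjusted p = 0.000815), the writer subunit CBLL1 (0.456 times, adjusted p = 0.00166) and the reader IGF2BP3 (0.538 times, adjusted p = 0.00347) fell beside IGF2BP1.

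Of 37 DEAD- and DEAH-box helicases, 6 rose and 11 fell in exosomes, with a median log2 fold of -0.26. Without DDX5, DDX17 and DHX9, 6 of 34 rose and 8 fell, where 17.6% of all genes rose and 19.5% fell. EIF4A3, of the exon junction complex, rose 1.92-fold (adjusted p = 4.5e-05), and the ribosome biogenesis helicases DDX54 (2.59-fold, adjusted p = 4.78e-05), DDX50 (2.51-fold, adjusted p = 0.000413) and DDX27 (1.44-fold, adjusted p = 0.000786) rose too. DDX47, also of ribosome biogenesis, fell to 11.2 ± 6.18 CPM in exosomes, against 85.1 ± 4.51 CPM in cells (SD, n = 6 each; adjusted p = 2.21e-06), and DDX3X fell to 0.472 times its level in cells (adjusted p = 2.23e-06). A lower level in exosomes was therefore not shared by all helicase genes.

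The comparison of Ang with Con cells asked which genes differ with the label inside the cells. No member and none of the 13331 genes tested (0.0%) was called by edgeR, whose smallest adjusted p was 0.121; 816 genes (6.12%) had an unadjusted p under 0.05. DESeq2 called 50 genes (0.375%), with DDX17 the 1 member among them. Of the 5 gene lists, none had a gene called by edgeR, and 2 of 31 formation, 0 of 11 export, 2 of 26 decay, 1 of 20 m6A and 6 of 37 helicase genes had an unadjusted p under 0.05.

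DDX17 averaged 507.1 ± 36.2 CPM in Ang cells and 857.2 ± 102 CPM in Con cells (SD, n = 3 each). All 3 Ang libraries were below all 3 Con libraries, as were those of 6.89% of all genes. The fitted log2 difference was -0.76 (SE 0.10, unadjusted p = 0.00037, rank 10 of 13331), with an adjusted p of 0.449 in edgeR and of 1.39e-05 in DESeq2. Leaving out each library in turn gave log2 values between -0.86 and -0.69, none called by edgeR (adjusted p 0.195 to 0.73).

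Of the other 7 genes, all but DHX9 lay close together in Ang and Con cells. QKI (log2 0.07, SE 0.05), ILF2 (0.08, SE 0.06), ADAR (0.01, SE 0.07), YTHDF2 (0.03, SE 0.09), DDX5 (-0.09, SE 0.10) and METTL3 (0.07, SE 0.15) had small SEs, and DHX9 (-0.20, SE 0.39) a large one. Their adjusted p in edgeR was 0.839 to 0.993, and the libraries of all but QKI overlapped between the labels. The lowest Ang cell library of QKI, at 240.2 CPM, was just above the highest Con cell library, at 239.0 CPM, whereas the labels overlapped at 255.8 and 257.7 CPM when only the 6 cell libraries were scaled together. HNRNPA2B1, the most abundant gene of the m6A list, stood at 712.3 ± 20.6 CPM in Ang cells, against a scattered 735.1 ± 340.3 CPM in Con cells (SD, n = 3 each; edgeR adjusted p = 0.985).

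In exosomes, no member passed the test between Ang and Con; edgeR called 1 of 8327 genes (0.012%), with 316 (3.79%) at an unadjusted p under 0.05, and DESeq2 called 13 (0.156%) and no member. ADAR averaged 203.6 ± 56.3 CPM in Ang exosomes and 309.1 ± 8.03 CPM in Con exosomes (SD, n = 3 each), and all 3 Ang libraries were below all 3 Con libraries, as for 5.6% of all genes. Its log2 difference was -0.60 (SE 0.24, unadjusted p = 0.0319, edgeR adjusted p = 0.999), from 83 to 136 reads in Ang and 207 to 212 reads in Con.

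DDX17 averaged 231.7 ± 46.5 CPM in Ang exosomes and 124.2 ± 73.0 CPM in Con exosomes (SD, n = 3 each). The lowest Ang library, at 202.2 CPM, was just below the highest Con library, at 204.3 CPM. The log2 difference was 0.90 (SE 0.41, edgeR adjusted p = 0.999). YTHDF2 (log2 -0.76, SE 0.52), QKI (-0.40, SE 0.34), ILF2 (-0.30, SE 0.62), DHX9 (-0.22, SE 0.31), DDX5 (0.04, SE 0.16) and METTL3 (-0.01, SE 0.48) overlapped between the labels, and without the third Ang library ILF2 stood at 0.17 and YTHDF2 at -1.45. YTHDF2 stood at -0.50 without the second Ang library.

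In the exosome lists no gene was called by edgeR either. The most abundant genes of each were RBM25 (log2 -0.14) and NONO (0.23) for formation, IGF2BP2 (0.02) and RAN (0.05) for export, XRN2 (0.14) and AGO2 (0.15) for decay, HNRNPA2B1 (-0.89) and ZC3H13 (-0.97) for m6A, and DDX27 (-0.11) and DDX46 (-0.49) for the helicases. Without the third Ang exosome library HNRNPA2B1 stood at -0.48, ZC3H13 at -1.79 and DDX46 at -1.27, and without the first Ang exosome library ZC3H13 stood at -0.47 and DDX46 at -0.002505. In cells they were DDX5 (-0.09) and PRPF8 (-0.03), IGF2BP2 (-0.08) and RAN (0.06), G3BP1 (0.10) and G3BP2 (0.03), HNRNPA2B1 (-0.05) and IGF2BP2, and DDX5 and DDX17. Among genes with an unadjusted p under 0.05 in exosomes were 1 of 29 formation, 1 of 9 export, 0 of 19 decay, 0 of 19 m6A and 1 of 36 helicase genes.

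The Ang against Con change was then compared between compartments in 1 model of all 12 libraries. Of 11811 genes, edgeR called 3 (0.0254%), none a member, with 971 (8.22%) at an unadjusted p under 0.05, and DESeq2 called 368 (3.12%). DDX17 had the largest difference of the 8 genes, 1.66 on the log2 scale (exosome change minus cell change, SE 0.44, rank 68 of 11811), with an adjusted p of 0.418 in edgeR and 0.0324 in DESeq2. Without the first Con exosome library, which was the highest of its group, the difference was 2.22 and edgeR's adjusted p 0.0406; over all 12 fits that left out a library it was 1.32 to 2.22.

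ADAR differed by -0.62 (SE 0.25) and QKI by -0.48 (SE 0.35), with edgeR adjusted p of 0.564 and 0.792. YTHDF2 (-0.82, SE 0.53), ILF2 (-0.40, SE 0.64), DHX9 (-0.04, SE 0.47), METTL3 (-0.09, SE 0.45) and DDX5 (0.12, SE 0.18) also had an adjusted p above 0.05. The 2 most abundant genes of each of the 5 lists, 10 genes in all with DDX5 among them, lay between -0.85 and 0.21, and edgeR called no list gene.

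The ratio of DDX17 to DDX5 within a library sets the helicase pair side by side without a scaling between libraries; it was chosen after its values were seen. It was 0.579, 0.431 and 0.381 in Ang exosomes and 0.374, 0.148 and 0.209 in Con exosomes, against 0.464, 0.436 and 0.514 in Ang cells and 0.733, 0.662 and 0.872 in Con cells. Ang exosomes were all above Con exosomes, whereas Ang cells were all below Con cells. The share of all gene pairs that separate in this way is not given here. The log2 difference of Ang from Con was 1.01 in exosomes and -0.67 in cells (exact permutation p = 0.1 each, the smallest possible for 3 against 3). Between exosomes and cells the log2 difference was -0.89 (exact permutation p = 0.0195, n = 6 each), and without the third Con cell library it was -0.78 and no longer passed 0.05.

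**Figure D4:**
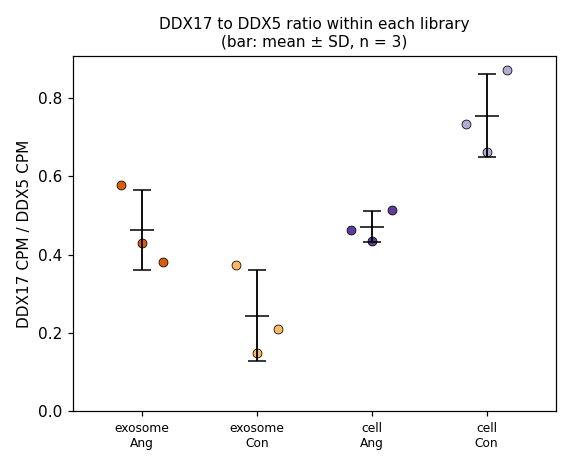
Ratio of DDX17 to DDX5 CPM in each of the 12 libraries (linear axis from 0), by group, with the mean and SD of 3 libraries. Ang exosomes (0.381 to 0.579) lie above Con exosomes (0.148 to 0.374), and Ang cells (0.436 to 0.514) lie below Con cells (0.662 to 0.872).

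As hosts, the 8 genes supplied few junction reads. In exosomes 2 circles from 2 of them held 9 of 6768 junction reads (0.133%), where the 8 genes held 0.133% of the gene reads. In cells 8 circles from 5 of them held 58 of 43450 junction reads (0.134%), where the 8 genes held 0.304% of the gene reads. ADAR and ILF2 had no listed circle. Of all 5700 circRNAs, 3284 (57.6%) had both ends at exon ends of 1 gene, as did 6 of the 9 circles of member genes.

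DDX17 exons 2 to 8 was the only member circle with 10 or more reads. It had 3, 4 and 6 junction reads in Ang cells and 6, 3 and 10 in Con cells, 32 in all, and was not listed in exosomes. DDX17 had 616 gene reads over the exosome libraries and 44113 over the cell libraries. At that depth, the absence of the circle from exosomes shows no difference between compartments. The circle ranked 214 of 5179 circRNAs in cells by reads and belonged to the 180 (3.48%) with reads in all 6 cell libraries. Its Ang and Con counts overlapped and lay below the count filter of the circRNA test, so it has no test of its own.

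The shorter DDX17 circle, exons 2 to 5, had 5 reads in the second Ang exosome library and 3 in the third Con cell library, and was at 0 in the other 10. METTL3 exons 2 to 3 had 4 and 5 reads in the second and in the third Ang cell libraries. DHX9 exons 20 to 25 had 4 reads in the third Con exosome library, QKI exons 2 to 4 had 4 in the first Con cell library and YTHDF2 exon 4 had 3 in the third Con cell library. A count of 2 to 5 in 1 library gives no difference between groups. The other 3 circles, in QKI, DDX5 and DDX17, had ends away from exon ends and 2 or 3 reads each.

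Across all circRNAs, edgeR called none of the 93 tested in cells (0.0%, 0 at an unadjusted p under 0.05) and none of the 9 tested in exosomes (1 at an unadjusted p under 0.05) between Ang and Con, and without the count filter none of 5179 in cells (58 at an unadjusted p under 0.05). No other tool was run on circRNAs.

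The genes most like each member over the 12 libraries, by Pearson's r of log2 CPM among 11811 genes, differed from member to member. They were TAOK3 (r = 0.97) and OCLN (0.96) for DDX17, SMC3 (0.98) and HMGCS1 (0.98) for DDX5, TMED5 (0.98) and ZNF845 (0.98) for QKI, and APH1A (0.97) and B3GLCT (0.97) for ADAR. For ILF2 they were C3orf14 (0.98) and TMEM14C (0.98), for YTHDF2 TSPAN4 (0.98) and PSMD13 (0.97), for METTL3 CREB3L4 (0.94) and TMEM14A (0.94), and for DHX9 H6PD (0.92) and KMT2A (0.82). No gene was named by 2 members. These values describe the libraries and share their compartment, kit and depth.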

How the data were processed

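The deposited files of the 12 libraries hold integer counts of reads for each Ensembl gene identifier and, per the file headers, counts of back-splice junction reads for each circRNA. Per the submitters' processing notes, GRCh38, HISAT2 and StringTie were used. The roles of these tools, the read counter, strand use, annotation release and circRNA calling program are each not given in the sources used here. Listed values stop at a lower limit of 2 junction reads. Whether the 3 libraries in each group are separate cultures is not labelled, and p-values then cover only the spread among libraries, possibly technical. The members and gene lists were chosen with earlier results of these data known.

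Gene counts were tested in R 4.3.3 with edgeR 4.0.16 (quasi-likelihood F test, robust, TMM scaling, filterByExpr with minimum count 10 and total 15), with Benjamini-Hochberg adjustment over all genes tested. Simulated data were run through the Ang against Con tests and the difference of changes, but not through exosomes against cells. Exosomes were set against cells in a model of 4 groups in 12 libraries over genes listed in both compartments, and Ang against Con within each compartment. DESeq2 1.42.0, other scalings, no count filter, a replicate block, thinned cells (1 random draw) and leaving out libraries were alternatives. SEs of edgeR's log2 values were calculated as the absolute value divided by the square root of the F statistic. CircRNA counts were scaled by gene reads. Single values were compared by exact two-sided permutation of mean log2 values, and with the replicate block by exact sign flips of paired log2 differences. Named genes were the 8 members, up to 4 called genes per list and direction (or the 2 most abundant where none was called), the 2 genes most like each member, and member circRNAs with at least 10 reads. Exon lengths, coordinates (from 1) and junction sequences come from GENCODE release 29. Depth limits precision, since the shallowest exosome library held 535442 gene reads.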

Additional observations from a re-analysis of the deposited data

Results flagged for a closer look

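The ratio of DDX17 to DDX5 differed between the labels in opposite directions in the 2 compartments. Every Ang exosome library was above every Con exosome library, the closest at 0.381 against 0.374. Every Ang cell library was below every Con cell library. The log2 difference of Ang from Con was 1.01 in exosomes and -0.67 in cells, and these differ by 1.69. Each had an exact permutation p of 0.1, the smallest possible for 3 against 3. That difference of the ratio was not tested, and the ratio was chosen after its values were seen. DDX17 alone gave 1.66 for the same contrast, with an adjusted p of 0.418 in edgeR and of 0.0324 in DESeq2. The Con exosome values of DDX17 rest on 142, 42 and 71 reads.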

How the results depend on the processing

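With the cells thinned, 2 members were called between exosomes and cells and 3 within Ang. Between Ang and Con cells, DESeq2 called 50 genes and 1 member. Between Ang and Con exosomes, the count of genes called was 13 with DESeq2, 3 with no low-count filter and 22 in the fit to all 12 libraries. For the difference of the Ang against Con change, it was 368 with DESeq2 (1 member), 5 with upper-quartile scaling and 6 with the cells thinned. Exosomes against cells gave 4127 genes within Ang and 4177 within Con with DESeq2. Thinning turned DHX9 to 0.064 in the difference of changes and ILF2 to 0.089 within Con. The median over all genes in exosomes against cells was -0.15, and -0.04 with the cells thinned, -0.11 with RLE scaling and -0.26 with the replicate block, and all 8 members stayed below 0 in each.

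Libraries with the same replicate number had deviations from their group means correlated at -0.04 to 0.02. The deeper cell libraries, paired between Ang and Con, gave -0.0438, -0.0234 and -0.0157, and the pairs that held exosome libraries -0.0171 to 0.0166. These values do not settle whether such libraries share a culture. With the number as a replicate block, 0 genes were called between Ang and Con exosomes, and HNRNPA2B1 stood at 0.073 in cells. With label and number as the block, 1 gene was called in the difference of changes, 1510 within Ang and 1351 within Con. The ratio of DDX17 to DDX5 stood at -0.89 between exosomes and cells paired by label and number. Exact sign flips of the paired log2 differences gave p = 0.0938, a different test from the permutation of libraries used elsewhere. The block also ended the calls of DHX9 (adjusted p = 0.124), DDX39A (0.132) and RPP38 (0.156) between exosomes and cells and of YTHDF2 (0.0609) within Ang.

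Without each library in turn, log2 values that crossed 0 between Ang and Con cells ranged from -0.055 to 0.062 for ADAR, -0.17 to 0.000514 for DDX5, -0.53 to 0.055 for DHX9, -0.39 to 0.22 for HNRNPA2B1, -0.31 to 0.086 for IGF2BP2, -0.049 to 0.24 for METTL3, -0.04032 to 0.11 for YTHDF2 and -0.009712 to 0.058 for the junction total. Between Ang and Con exosomes they ranged from -0.084 to 0.13 for DDX5, -0.10 to 0.15 for IGF2BP2, -0.84 to 0.17 for ILF2, -0.22 to 0.28 for METTL3, -0.12 to 0.46 for NONO, -0.052 to 0.17 for RAN and -0.14 to 0.40 for XRN2. In the difference of changes they ranged from -0.28 to 0.30 for DHX9, -0.94 to 0.072 for ILF2 and -0.31 to 0.19 for METTL3. METTL3 ranged from -0.39 to 0.03969 within Ang and from -0.42 to 0.072 within Con, and ILF2 from -0.34 to 0.056 within Con. Genes called numbered 0 to 3 in cells, 1 to 4 in exosomes, 1 to 17 in the difference of changes and 1565 to 2889 within Con; members called numbered 0 to 1 in the difference of changes and 2 to 5 within Ang, and circRNAs called in exosomes 0 to 2. The ratio of DDX17 to DDX5 between exosomes and cells ranged from -1.06 to -0.66. The causes of these shifts were not tested, apart from the fewer libraries or reads that the alternatives themselves leave.

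Exosome depth limits all of this: METTL3 and YTHDF2 had as few as 13 and 14 reads in a library, ILF2 13, and no member circle but 1 reached 10 reads. Compartment and kit cannot be told apart, and reads shared with pseudogenes or opposite-strand genes were not separated.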
